A study of Mus musculus with 4 samples.

Results

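Embryonic erythroid cells were recovered in the 3 in vivo libraries of XY mouse gonads, where they made up 130 of 10098 cells (12539 cells with the ESC-derived library). Cells were chosen by their globin share. A cell was counted as erythroid if the transcripts of 7 globin genes, Hbb-y, Hbb-bh1, Hba-x, Hba-a1, Hba-a2, Hbb-bt, and Hbb-bs, together made up at least 20% of its unique molecular identifiers (UMIs, each of which stands for 1 captured RNA molecule). All deposited cell barcodes were used, with no limit on the number of detected genes. By this rule, erythroid cells were 61 of 4473 in the E10.5 library (E, embryonic day), 23 of 2449 in the E11.5 library, and 46 of 3176 in the E12.5 library. These were 1.36% (exact binomial 95% interval, 1.04 to 1.75), 0.939% (0.596 to 1.41), and 1.45% (1.06 to 1.93) of the libraries. Each stage was represented by 1 library, so the intervals cover counting error only and no test between stages was possible. The dissection took mesenchyme dorsal to the gonads at E10.5 only, and its part in the share was not tested.

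The study compared gonadal cells of embryos with testicular somatic cells made from embryonic stem cells (ESCs) by single-cell RNA sequencing. The in vivo libraries came from ICR embryos and were dissociated with papain, and the mesonephros had been taken away at E11.5 and E12.5. All libraries are titled XY, although the extraction notes call the in vivo tissue female. The Y-linked genes Ddx3y, Eif2s3y, Uty, and Kdm5d together had 4275, 4589, and 6515 UMIs in the E10.5, E11.5, and E12.5 libraries, compared with 3, 29, and 10 of Xist, the RNA of the inactive X chromosome. In the erythroid cells, these were 71, 7, and 7 beside 0 of Xist. How many embryos entered each library is not given in the sources used here. The fourth library, D6, held cells of XY ESC aggregates after 6 days, enriched on magnetic columns for the Nr5a1 reporter. Its line, N271S9C, is labelled C57BL/6J with the transgenes Nr5a1-hCD27a and Sox9-2A-CGFP, whereas the study's methods write Nr5a1-hCD271 and give the parent ESCs as a cross of 129X1/SvJ and C57BL/6J. It was prepared with a later version of the reagent kit, so that kit, strain, and origin cannot be told apart. The deposited UMIs numbered 40199985 for E10.5, 32519441 for E11.5, 42242194 for E12.5, and 13965107 for D6. D6 held no UMI of any of the 7 globin genes, and 0 of its 2441 cells were erythroid, which allows a share of up to 0.123%.

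Red cells of the early mouse embryo arise in the yolk sac as the primitive erythroid lineage, enter the circulation while still nucleated, and mature there as a cohort. Adult-type, definitive red cells come later, largely from the fetal liver. Haemoglobin is a tetramer of α-like and β-like globin chains, each holding a haem with its iron. During primitive maturation, transcripts of the early embryonic genes Hbb-bh1 (βh1-globin) and Hba-x (ζ-globin) give way to Hbb-y (εy-globin) and to the adult α-globins Hba-a1 and Hba-a2, while the adult β-globins Hbb-bt and Hbb-bs belong mainly to definitive cells.

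In the reference genome, the 7 genes lie in 2 clusters, in which the adult copies are nearly identical. The globin sequences of the ICR embryos themselves were not examined. On GRCm38 with the GENCODE annotation, the β-like genes are on the minus strand of chromosome 7: Hbb-bt at chr7:103812524-103813996, Hbb-bs at chr7:103826534-103828096, Hbb-bh1 at chr7:103841637-103843164, and Hbb-y at chr7:103851749-103853216. The α-like genes are on the plus strand of chromosome 11: Hba-x at chr11:32276400-32278116, Hba-a1 at chr11:32283511-32284465, and Hba-a2 at chr11:32296489-32297298. Each of them is a protein-coding gene of 3 exons. The last 150 coding bases, without the stop codon, are shown because the kit reads near the 3′ end of a transcript and because they show which copies can be confused. They run from coding base 292 to 441 in the β-like genes and from 277 to 426 in the α-like genes, 5′ to 3′ on the coding strand, and capitals mark bases that differ within each pair.
Hbb-bt: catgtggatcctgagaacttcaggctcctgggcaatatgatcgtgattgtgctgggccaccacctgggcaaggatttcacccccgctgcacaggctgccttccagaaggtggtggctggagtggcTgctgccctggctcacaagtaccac
Hbb-bs: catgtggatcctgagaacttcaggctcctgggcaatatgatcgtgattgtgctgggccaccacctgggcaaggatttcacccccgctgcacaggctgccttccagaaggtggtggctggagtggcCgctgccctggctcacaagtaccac
Hba-a1: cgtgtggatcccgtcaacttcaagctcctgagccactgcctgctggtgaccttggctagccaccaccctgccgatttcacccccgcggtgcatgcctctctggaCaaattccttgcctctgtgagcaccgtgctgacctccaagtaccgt
Hba-a2: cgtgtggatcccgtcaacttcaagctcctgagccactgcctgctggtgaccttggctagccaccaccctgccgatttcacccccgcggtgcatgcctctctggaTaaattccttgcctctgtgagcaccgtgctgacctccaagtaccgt
Hbb-y: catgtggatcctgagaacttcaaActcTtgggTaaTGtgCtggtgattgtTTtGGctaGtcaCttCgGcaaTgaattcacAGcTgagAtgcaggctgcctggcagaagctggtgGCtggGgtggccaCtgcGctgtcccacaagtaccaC
Hbb-bh1: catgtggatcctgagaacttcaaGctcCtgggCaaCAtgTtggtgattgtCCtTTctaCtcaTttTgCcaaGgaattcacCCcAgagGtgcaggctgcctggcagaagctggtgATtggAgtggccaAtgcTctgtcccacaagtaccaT

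The adult β-globins Hbb-bt and Hbb-bs differed at 1 of 441 coding bases (99.8% identity), and so did the adult α-globins Hba-a1 and Hba-a2 at 1 of 426 (99.8%). Beyond the stop codon the pairs differed. The longest run shared by Hbb-bt and Hbb-bs there was 8 bases, of 132 and 131 annotated bases, whereas all 74 bases annotated for Hba-a1 were also found in Hba-a2. UMIs of Hba-a1 and Hba-a2 are therefore uncertain as to their copy, and their sum is the safer quantity. The embryonic genes Hbb-y and Hbb-bh1 differed at 104 of 441 coding bases (76.4% identity) and at 25 of the last 150, and Hba-x differed from Hba-a1 at 163 of 426 (61.7%).

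Stretches before the start of transcription are shown for the gene with the most globin UMIs, for both adult β-globins, and for Hba-a2 of the adult α pair, since the levels of these genes are compared across stages below. They were taken from RefSeq (GRCm38.p6), as the bases nearest the RefSeq start, up to 120, that no annotated exon of the gene covers. The table used held an entry for 6 of the 7 genes. Capitals mark 4 short motifs on either strand: CACCC, the core bound by KLF1; CCAAT, bound by NF-Y; GATAA, bound by GATA1; and TATAA, the TATA box. The motifs were searched in the 250 bases before the start. Hbb-y is shown at chr7:103853217-103853336, Hbb-bs at chr7:103827929-103828011, and Hbb-bt at chr7:103813997-103814116, all on the minus strand, and Hba-a2 at chr11:32296369-32296488 on the plus strand.
Hbb-y: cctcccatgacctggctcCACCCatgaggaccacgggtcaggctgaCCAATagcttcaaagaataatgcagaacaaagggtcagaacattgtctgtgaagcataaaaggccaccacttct
Hbb-bs: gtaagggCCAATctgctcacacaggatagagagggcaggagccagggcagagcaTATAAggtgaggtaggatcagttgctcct
Hbb-bt: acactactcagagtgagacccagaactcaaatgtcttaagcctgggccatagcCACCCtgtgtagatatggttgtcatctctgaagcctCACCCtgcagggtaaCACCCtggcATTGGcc
Hba-a2: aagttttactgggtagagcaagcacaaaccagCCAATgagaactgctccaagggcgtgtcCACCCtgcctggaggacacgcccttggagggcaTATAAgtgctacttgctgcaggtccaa
Of all 32851 promoters in the table, 52.0% held CACCC, 33.8% held CCAAT, 22.6% held GATAA, and 22.8% held TATAA within the same 250 bases. The nearest CCAAT began 83 bases before the start in Hbb-y, 76 in Hbb-bs, 91 in Hba-a2, and 36 in Hbb-bt, the last outside the stretch shown. In the same order, the nearest CACCC began 111, 90, 63, and 89 bases before the start. That of Hbb-bs lies outside the stretch shown. Hbb-bt had further CCAAT matches 80 and 75 bases before the start. Its stretch shown holds the first of these and cuts the second. TATAA began 29 bases before the start in Hbb-bs, 30 in Hba-a2, and 28 in Hbb-bt, there outside the stretch shown. In Hbb-y, no TATAA was found in the 250 bases. The full 250 bases of Hba-a1 and Hba-a2 shared a run of 247 bases, while the longest run shared by Hbb-bt and Hbb-bs was 14. GATAA was found in all 4 promoters but before the stretches shown, for example 162 bases before the start in Hbb-y. These matches are a description of letters and not of binding.

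The erythroid cells stood well apart from the others on the measure that chose them. The lowest erythroid share of globin UMIs was 25.9% for E10.5, 38.5% for E11.5, and 63.3% for E12.5, followed by 31.2%, 41.1%, and 71.1%. Just outside the limit, the highest cells had 14.1%, 15.7%, and 16.05%. Only 7 cells, 3 for E10.5, 2 for E11.5, and 2 for E12.5, lay between 2% and 20%. The cells below 2%, which were used for comparison within the same library, numbered 4409, 2424, and 3128. Their highest globin shares were 1.91%, 0.720%, and 1.32%. The erythroid cells held 99.3%, 94.5%, and 97.1% of all globin UMIs of their libraries.

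Globin UMIs were found outside the erythroid cells as well. Among the cells below 2%, 43.6% for E10.5, 76.7% for E11.5, and 62.8% for E12.5 had at least 1 globin UMI, with a mean of 0.735, 1.69, and 1.55 UMIs per cell. These cells include gonadal types that should lack globins. Their median number of detected genes, 2775, 3363, and 3278.5, was above that of the erythroid cells. Hbb-bh1 made up 22.03%, 4.22%, and 1.87% of the β-like UMIs in these cells of the 3 stages, beside 25.8%, 5.67%, and 2.07% in erythroid cells. Hba-x made up 48.0%, 23.2%, and 10.1% of their α-like UMIs, beside 53.4%, 26.6%, and 15.3%, and the adult β-globins 3.998%, 14.5%, and 21.6% of their β-like UMIs, beside 0.982%, 10.3%, and 17.6%. The order of these shares over the stages was the same in both groups of cells. In the cells below 2%, Hbb-bh1 and Hba-x had lower shares and the adult β-globins higher ones. For Hbb-bh1 at E12.5, the exact interval there (1.42 to 2.43) held the erythroid value. At E10.5, single cells below 2% held 18 of the 45 Hbb-bt UMIs and 22 of the 45 Hbb-bs UMIs. The adult α-globin Hba-a1 was lower there, at 32.8%, 56.9%, and 70.2% of the α-like UMIs, beside 40.8%, 63.5%, and 75.3% in erythroid cells. Levels at or below a few globin UMIs per cell were read as background.

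The label was checked against its markers, of which only Alas2 was not part of the rule. The globins are therefore a description of the chosen cells. All 61 erythroid cells for E10.5 and all 23 for E11.5 had UMIs of Hbb-y, Hbb-bh1, Hba-x, and Hba-a1. At E12.5, Hba-a1 was found in all 46 cells, Hbb-y and Hba-x in 44 each, and Hbb-bh1 in 43. Alas2, which encodes the erythroid enzyme of the first step of haem synthesis, was found in 96.7%, 95.7%, and 97.8% of the erythroid cells. In the cells below 2%, Alas2 had a mean of 0.00136, 0.00949, and 0.0157 UMIs per cell, and in the erythroid cells 20.0, 15.1, and 10.0.

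UMIs per erythroid cell differed across the stages. Cells below 2% of the same libraries had medians of 8194, 12254, and 11053 UMIs, in another order. With 1 library per stage, RNA content cannot be told apart from the depth of the library. The median erythroid cell had 16182 UMIs for E10.5 (582 to 44263), 15480 for E11.5 (1152 to 32171), and 12622.5 for E12.5 (620 to 21852). Globins took a median of 53.6% of these UMIs for E10.5 (25.9 to 73.2), 80.7% for E11.5 (38.5 to 87.0), and 89.9% for E12.5 (63.3 to 96.6). The globin UMIs themselves numbered a median of 8830, 11054, and 11348.5 per cell, whereas all other UMIs numbered 7430, 2791, and 1204.5. The higher globin share thus went with fewer UMIs of other genes at each step. Globin UMIs were higher for E11.5 than for E10.5, but from E11.5 to E12.5 the median was higher and the mean lower (10959 and 10667).

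**Figure D1:**
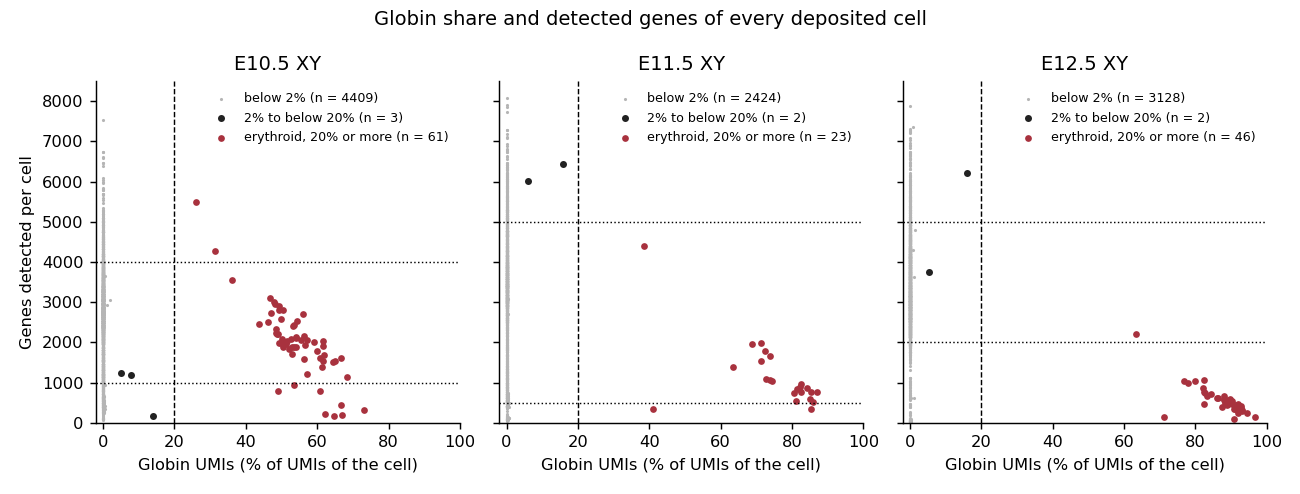
Each point is 1 deposited cell of E10.5, E11.5, or E12.5, with the globin share of its UMIs (percent, x axis) and its number of detected genes (y axis); the dashed line marks the 20% limit and the dotted lines the study's limits on detected genes. Erythroid cells (red) lie at a median of 53.6% and 1999 genes for E10.5 (n = 61), 80.7% and 896 genes for E11.5 (n = 23), and 89.9% and 450 genes for E12.5 (n = 46), with 7 cells (black) between 2% and 20%.

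Detected genes per erythroid cell had a median of 1999 for E10.5, 896 for E11.5, and 450 for E12.5, and the ranges of neighboring stages overlapped. The order was the same at equal depth. After all cells were thinned to 5000 UMIs, the medians were 968.5, 475, and 266.5 in erythroid cells (54, 21, and 44 cells, with 7, 2, and 2 shallower cells left out) and 2039, 1948, and 2003 in cells below 2%, with 872, 523, and 141 left out. With 1000 UMIs of genes other than the globins, the medians were 538.5, 487, and 411 in erythroid cells and 647, 621, and 636 in the others, with 5, 2, and 10 erythroid cells and 133, 172, and 40 others left out. Within each library, cells with a higher globin share had fewer detected genes (Spearman's rho across cells, −0.78 with n = 61, −0.66 with n = 23, and −0.75 with n = 46). Those cells share 1 library and the globin UMIs are part of the depth, so these values are a description.

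The study's filter, which limits both detected genes and the mitochondrial share, treated these cells differently at each stage. It kept 51 of the 61 erythroid cells for E10.5 and 21 of the 23 for E11.5, but 1 of the 46 for E12.5, where at least 2000 genes were asked for and 45 cells had too few. Of the cells below 2%, it kept 85.8%, 85.8%, and 88.3%.

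Hbb-y was the globin with the most UMIs in the erythroid cells of each stage. A cell had a median of 4016 Hbb-y UMIs for E10.5 (165 to 6795), 6116 for E11.5 (218 to 10177), and 5957.5 for E12.5 (0 to 7870). Hbb-y made up 73.3%, 84.0%, and 80.3% of the summed β-like UMIs. Its per-cell ranges overlapped at all 3 stages.

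Hbb-bh1, the βh1-globin of the earliest primitive cells, was lower at each later stage. It had a median of 1394 UMIs per cell for E10.5 (73 to 2209), 305 for E11.5 (79 to 763), and 83.5 for E12.5 (0 to 725). As a share of the β-like UMIs of a cell, the median was 26.2% for E10.5 (17.5 to 33.9), 6.08% for E11.5 (2.43 to 26.3), and 1.49% for E12.5 (0 to 15.6). The E10.5 and E12.5 cells did not overlap in this share, and 1 cell at E11.5, with 1152 UMIs in all, lay within the E10.5 range at 26.3%. The summed shares were 25.8% (exact interval, 25.6 to 25.9), 5.67% (5.55 to 5.78), and 2.07% (2.02 to 2.12).

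Hba-x, the embryonic ζ-globin, was lower in the same order among the α-like UMIs. A cell had a median of 1729 Hba-x UMIs for E10.5 (67 to 3369), 1022 for E11.5 (64 to 2086), and 612.5 for E12.5 (0 to 1771). Its share of the α-like UMIs had a median of 52.5% (41.7 to 61.0), 25.6% (12.0 to 57.0), and 14.3% (0 to 47.2). Here all 3 ranges overlapped. The highest E12.5 value, 47.2%, belonged to a cell with 620 UMIs in all, which also had the highest Hbb-bh1 share of its stage. Another E12.5 cell, with 12581 UMIs, had an Hba-x share of 45.2%, also within the E10.5 range. The adult α-globin Hba-a1 went the other way, with a median of 1341 UMIs per cell for E10.5, 2749 for E11.5, and 3206.5 for E12.5. The α-like share of all globin UMIs stayed at a median of 37.0%, 37.7%, and 38.1%.

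**Figure D2:**
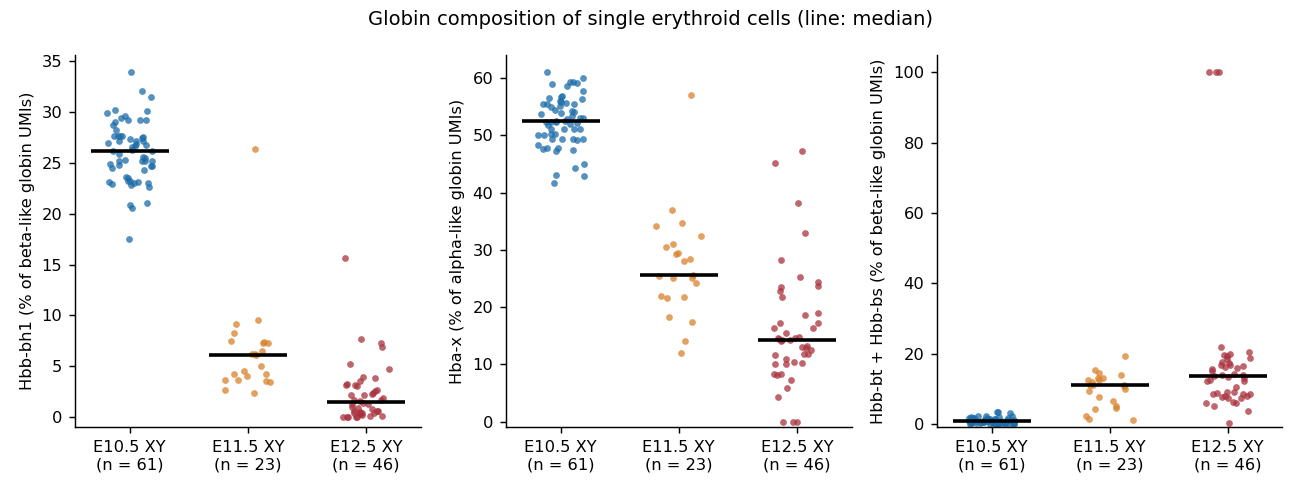
Each point is 1 erythroid cell and each line the median of a stage, with the share (percent, y axis) of Hbb-bh1 in the β-like UMIs, of Hba-x in the α-like UMIs, and of Hbb-bt with Hbb-bs in the β-like UMIs at E10.5, E11.5, and E12.5. Median shares are 26.2%, 6.08%, and 1.49% for Hbb-bh1 and 52.5%, 25.6%, and 14.3% for Hba-x, while the adult β share is 0.751%, 10.9%, and 13.6% with 3 cells of E12.5 at or near 100%.

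The adult β-globins Hbb-bt and Hbb-bs had a median joint share of 0.751% of the β-like UMIs for E10.5 (0.0252 to 3.28), 10.9% for E11.5 (1.00 to 19.3), and 13.6% for E12.5 (0.318 to 100). The mean UMIs per cell were 26.6, 288, and 239 for Hbb-bt and 25.6, 414, and 922 for Hbb-bs. The lowest cells of E11.5 and E12.5 lay within the range of E10.5. The embryonic genes Hbb-y, Hbb-bh1, and Hba-x together made up 82.2%, 65.7%, and 56.7% of the globin UMIs.

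A group of 3 cells at E12.5 differed from the other 43 in almost all β-like UMIs being adult. In the others, the highest adult β share was 21.9%. The 3 cells had 8443, 8961, and 12118 UMIs with 153, 747, and 253 detected genes, in the same order, and none had a UMI of Hbb-bh1. Together they held 1 UMI of Hba-x and 1 of Hbb-y. Alas2 was present in each, with 10 to 24 UMIs. They held 0 UMIs of Hsd3b6, where the other 43 cells held 444 with a median of 10 per cell, and 5 UMIs of Nudt4, where the others held 1228. Without these 3 cells, the summed adult β share of E12.5 was 12.9% in place of 17.6%, and Hba-x was 16.2% of the α-like UMIs in place of 15.3%. Adult β-globin also dominated 2 of the 7 cells between 2% and 20%. In 1 cell of E12.5, with 20134 UMIs of other genes, it made up 93.9% of the β-like UMIs, and in 1 cell of E10.5, 96.0%, there with 72 UMIs of Hbb-bt and 0 of Hbb-bs.

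At E12.5, the embryonic shares varied together from cell to cell. Cells with more Hbb-bh1 among their β-like UMIs had more Hba-x among their α-like UMIs (rho = 0.70 across 46 cells), beside rho = −0.22 across 61 cells for E10.5 and 0.22 across 23 cells for E11.5. Cells of E12.5 with a higher globin share had less Hba-x (rho = −0.78), compared with −0.18 for E10.5 and −0.49 for E11.5. The 46 cells include the 3 of mostly adult β-globin, and without them the values of E12.5 were 0.63 and −0.83 across 43 cells. The differences between these correlations were not tested, and all cells of a stage come from 1 library.

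The balance of the near-identical copies behaved differently in the adult β and adult α pairs. In cells with at least 20 UMIs of the pair, and without the 3 cells above, Hbb-bt made up a median of 43.9% of Hbb-bt with Hbb-bs for E10.5 (0.585 to 100, n = 43), 33.4% for E11.5 (1.41 to 99.0, n = 22), and 20.3% for E12.5 (0 to 85.6, n = 42). The SD over cells was 34.9, 33.5, and 21.3 percentage points, where counting error alone gives 6.95, 2.53, and 1.599. The cells of E10.5 and E11.5 were spread over the whole scale. Those of E12.5 lay mostly at its lower end, with 19 of 42 cells from 0% to 20% and 14 from 20% to 40%. At E10.5, 8 cells lay under 10% and 10 over 90%. At E11.5, these were 6 and 4 cells, and at E12.5, 16 and 0.

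Hba-a2 made up a median of 12.4% of Hba-a1 with Hba-a2 for E10.5 (8.66 to 19.5, n = 61), 13.5% for E11.5 (7.34 to 16.9, n = 23), and 11.1% for E12.5 (8.08 to 13.5, n = 43). Its SD over cells was 1.97, 1.93, and 1.22 percentage points, compared with 1.23, 0.951, and 0.832 from counting. The share of Hba-a2 in the cells below 2% was higher, at 36.9%, 25.9%, and 21.95% of the few UMIs there. As the 3′ ends of this pair are shared, the true share of a copy cannot be told apart from the way in which reads were assigned.

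**Figure D3:**
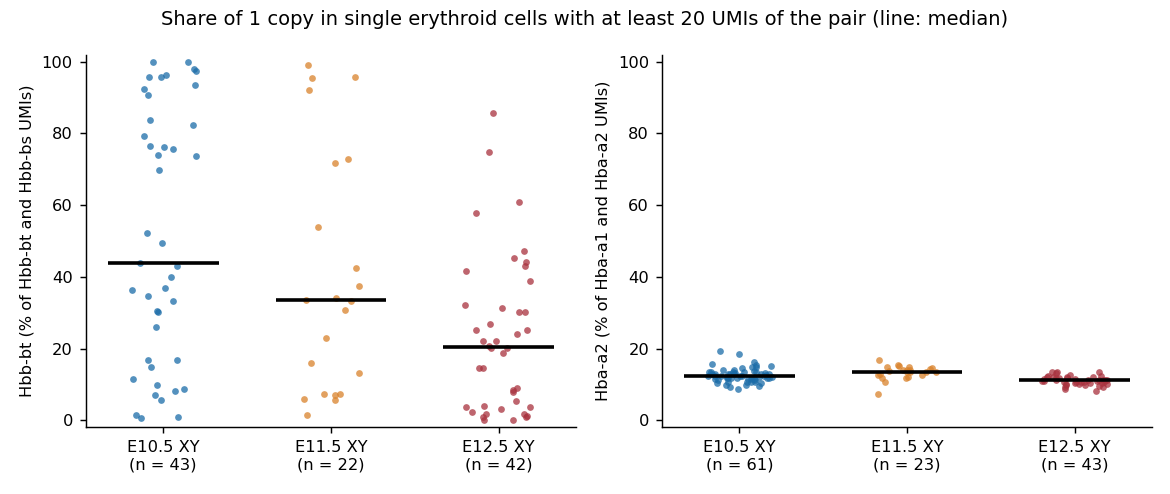
Each point is 1 erythroid cell with at least 20 UMIs of the pair, and the y axis gives the share (percent) of Hbb-bt in Hbb-bt with Hbb-bs or of Hba-a2 in Hba-a1 with Hba-a2 by stage, without the 3 cells of mostly adult β-globin. Hbb-bt shares run from 0.585% to 100% for E10.5 (n = 43), 1.41% to 99.0% for E11.5 (n = 22), and 0% to 85.6% for E12.5 (n = 42), whereas Hba-a2 stays between 7.34% and 19.5% at all stages.

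To describe the other genes, UMIs were summed over the erythroid cells and over the cells below 2% of each library and scaled to 1000000 UMIs other than those of the 7 globin genes (non-globin CPM). Differences are log2 ratios after 10 CPM was added to both values, which understates the change of low genes. A gene was kept if the mean level of both groups was worth at least 20 UMIs in the smaller group, which left 3121 genes for E10.5, 614 for E11.5, and 456 for E12.5. Since the rule itself separated these groups, the contrast has no test, and past 4-fold is a statement of size. At E10.5, 128 genes (4.10% of those kept) were higher in erythroid cells by at least 4-fold and 200 (6.41%) were lower. The counts were 77 (12.54%) and 19 (3.09%) for E11.5, and 79 (17.3%) and 64 (14.0%) for E12.5. With at least 50% globin UMIs, which left 21 of the 23 erythroid cells of E11.5, 43 genes were lower there in place of 19. The split into higher and lower depended on the scaling. TMM factors gave 154 higher and 120 lower for E10.5, and CPM of all UMIs, globins included, 86 and 705 for E10.5, 32 and 834 for E11.5, and 26 and 1937 for E12.5. Of the 435 genes kept in all 3 libraries, 42 were higher and 6 lower by 4-fold in each of them, and 0 were past 4-fold in opposite directions.

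Car2 and Alas2 led the genes that were higher in all 3 libraries. Car2, at chr3:14886273-14900770, encodes carbonic anhydrase 2, which hydrates carbon dioxide. It had 3492 non-globin CPM for E10.5 (exact Poisson interval, 3328 to 3663), 6270 for E11.5 (5761 to 6812), and 7759 for E12.5 (7119 to 8441), with 4.11, 6.83, and 4.33 CPM in cells below 2%. The log2 ratios of Car2 were 7.96, 8.54, and 9.08. Its mean UMIs per erythroid cell went the other way, at 27.9, 24.3, and 11.8, and so did the UMIs of all genes other than globins. Alas2, at chrX:150547375-150570638, had 2506, 3885, and 6597 CPM and log2 ratios of 7.95, 8.51, and 9.21. Slc25a37, Blvrb, Rhd, Acp5, Slc4a1, Fech, and Mgst3 were also among the 10 leading genes, with log2 ratios between 4.90 (Mgst3 for E12.5) and 6.64 (Slc4a1 for E12.5).

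Ldhb, Vim, Tmsb4x, and Sparc were among the genes that were lower in all 3 libraries. Ldhb, a lactate dehydrogenase subunit, had 28.8, 56.0, and 14.3 non-globin CPM in erythroid cells of the 3 stages and 360, 977, and 744 in cells below 2% (log2 ratios of −3.25, −3.90, and −4.95). Vim, the intermediate filament of mesenchymal cells, had log2 ratios of −3.60, −2.53, and −4.73. Tmsb4x, which encodes an actin-binding peptide, had −3.82, −2.58, and −4.95, and Sparc, a matrix glycoprotein, −2.62, −2.09, and −5.38. These levels rest on few UMIs. Vim had 14, 16, and 2 UMIs in all erythroid cells of the stages. Slc25a4, Mdk, Ifitm2, Marcksl1, Serpinh1, and Pkm completed the 10 genes with the largest negative ratios, the last 4 of which did not reach 4-fold at E11.5, with log2 ratios of −1.98, −1.92, −1.90, and −1.89.

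Haem is built by enzymes of the mitochondria and the cytosol, and the list for it held 12 enzymes and transporters. For the lists, every gene found in the files was counted, whether or not it passed the filter, since a gene that passes only through its level in the erythroid cells has to differ. Of the 12, 10 for E10.5, 11 for E11.5, and 10 for E12.5 were higher by at least 4-fold, and 0 were lower, while 11, 7, and 6 passed the filter. Of every gene with a UMI, 0.835%, 1.42%, and 1.60% were higher by that fold and 1.92%, 3.31%, and 7.91% lower, although many have too few UMIs to reach it. The median log2 ratio of the list was 3.62, 3.35, and 3.44, compared with −0.10, −0.12, and −0.20 over every gene with a UMI. Fech, which inserts the iron in the last step, had 1044, 1971, and 2668 non-globin CPM with log2 ratios of 5.31, 5.96, and 6.50. Alad, the second enzyme, had 3324, 2284, and 1621 CPM. Alas2 was thus higher and Alad lower at each later stage on this scale. Summed over the list, the level was 13452, 12842, and 15145 CPM, but 107, 49.9, and 23.0 UMIs per cell.

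The ferritin chains Fth1 and Ftl1, which store iron, took a larger part of the UMIs other than globins at each later stage. The 12 genes of the iron list summed to 34349, 60641, and 136920 non-globin CPM at E10.5, E11.5, and E12.5, beside 5090, 5337, and 5190 CPM in cells below 2%. In UMIs per erythroid cell they gave 274, 235, and 208. Without Fth1 and Ftl1, the other 10 genes had 3231, 4591, and 4632 CPM, and 25.8, 17.8, and 7.02 UMIs per cell. Fth1 had 16619, 32459, and 66803 CPM and 133, 126, and 101 UMIs per cell. Between E11.5 and E12.5, its log2 difference was 1.04 in non-globin CPM and −0.03 in CPM of all UMIs. Ftl1 had 14498, 23591, and 65484 CPM. Slc25a37, the mitochondrial iron importer mitoferrin-1, had log2 ratios of 5.81, 6.59, and 6.23 against cells below 2%, and Glrx5, needed to assemble iron-sulfur clusters, of 3.07, 3.73, and 4.13. Of the 12 genes, 5, 8, and 8 were higher by at least 4-fold (0.835%, 1.42%, and 1.60% of every gene with a UMI) and 0 were lower, while 8, 4, and 4 passed the filter. Between stages, 2 of the 12 were higher by at least 2-fold and 1 lower at each step, beside 13.8% and 15.5% of every gene with a UMI higher and 14.4% and 42.0% lower. The filter was passed by 4 of the 12 at each step. Of these 4, 0 were past 2-fold from E10.5 to E11.5. From E11.5 to E12.5, Ftl1 and Fth1 were higher and 0 were lower.

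Of 24 genes of the red cell membrane and its spectrin skeleton, 15, 15, and 16 were higher by at least 4-fold at the 3 stages (0.835%, 1.42%, and 1.60% of every gene with a UMI), and 0 were lower. The filter was passed by 18, 4, and 5 of them. The list summed to 4968, 8084, and 9078 non-globin CPM but 39.6, 31.4, and 13.8 UMIs per erythroid cell. Slc4a1, the anion exchanger band 3, had 203, 88, and 69 UMIs in the erythroid cells, or 417, 985, and 990 non-globin CPM, compared with 0.0255, 0.0312, and 0.0240 CPM in cells below 2%. Rhd, a blood group gene, had 467, 840, and 817 CPM. Cd24a, a surface glycoprotein also found on many other cells, did not reach 4-fold at any stage, with log2 ratios of −1.59, 1.50, and 1.78. Aqp1, the water channel of red cells, was at 0 UMIs in all 130 cells, a count that allows up to 3 UMIs per library.

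Of 14 enzymes and partners of haemoglobin found in the files, 10, 9, and 10 were higher by at least 4-fold (0.835%, 1.42%, and 1.60% of every gene with a UMI), and 0 were lower. The filter was passed by 11, 8, and 8. The list had sums of 22821, 40397, and 55230 non-globin CPM but 182, 157, and 83.7 UMIs per erythroid cell, so that the order of the stages was opposite on these scales. Prdx2, a peroxiredoxin that removes hydrogen peroxide, had 7877, 11387, and 17669 CPM, and Gpx1, a glutathione peroxidase, 4576, 14074, and 15575. Blvrb, biliverdin reductase B, had log2 ratios of 6.28, 5.58, and 6.34. Bpgm, which makes the 2,3-bisphosphoglycerate that lowers the oxygen affinity of haemoglobin, was named after its values were seen. It had 923, 1926, and 4704 CPM but 7.36, 7.48, and 7.13 UMIs per cell. Car1, the other main carbonic anhydrase of adult red cells, was at 0 UMIs at all 3 stages, which allows up to 3 UMIs per library.

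**Figure D4:**
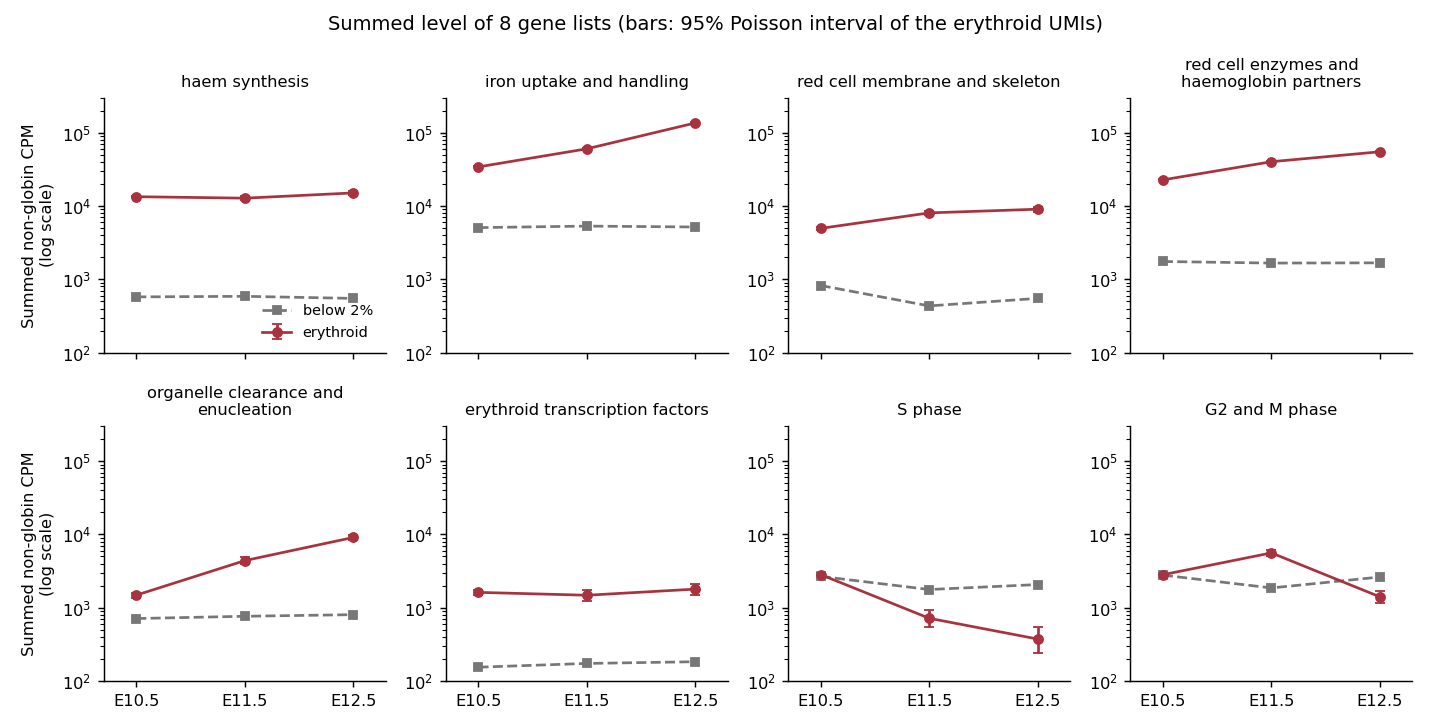
Summed levels of 8 gene lists (non-globin CPM, log scale, y axis) are plotted by stage for erythroid cells (red circles, with exact Poisson intervals for counting error) and for cells below 2% of the same library (gray squares). In erythroid cells, the iron list, most of which is Fth1 and Ftl1, goes from 34349 CPM for E10.5 to 136920 for E12.5 and red cell enzymes from 22821 to 55230, while S phase genes go from 2828 to 373. In UMIs per erythroid cell, iron genes go from 274 to 208 and red cell enzymes from 182 to 83.7.

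Of 13 erythroid transcription factors, 7, 7, and 6 were higher by at least 4-fold at the 3 stages (0.835%, 1.42%, and 1.60% of every gene with a UMI), and 0 were lower, while 9, 0, and 0 passed the filter. Klf1, a CACCC-binding activator of globin genes, had 282 UMIs for E10.5, 28 for E11.5, and 24 for E12.5, or 580, 314, and 344 non-globin CPM. Tal1, a helix-loop-helix factor of blood development, had 226, 224, and 373 CPM. Nfe2 had 41, 21, and 21 UMIs and Lyl1 61, 13, and 19. As a list they gave 1618, 1478, and 1793 CPM but 12.9, 5.74, and 2.72 UMIs per cell, and single genes were below the level kept at E11.5 and E12.5.

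Of 12 genes listed as regulators of globin switching, 4, 1, and 4 were lower in erythroid cells by at least 4-fold at the 3 stages (1.92%, 3.31%, and 7.91% of every gene with a UMI) and 0 higher, while 5, 1, and 0 passed the filter. The 4 of E10.5, Hmga2, Igf2bp1, Igf2bp2, and Igf2bp3, belong to the chromatin and RNA-binding proteins of the let-7 and Lin28 pathway and are widely expressed in embryonic tissue. The last 2 were named after their values were seen. Hmga2 had 92.5 CPM in erythroid cells and 789 in cells below 2% at E10.5 (log2 ratio of −2.96). Of its 45, 31, and 1 UMIs at the 3 stages, E10.5 and E11.5 each had few cells with any (4.92% and 8.70%). Sox6, a repressor of Hbb-y in definitive cells, had 0, 1, and 3 UMIs. Zbtb7a had 39, 4, and 3.

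In the erythropoietin receptor list of 10 genes, 2, 3, and 3 were higher by at least 4-fold (0.835%, 1.42%, and 1.60% of every gene with a UMI) and 0 lower, while 2, 1, and 2 passed the filter. The list summed to 567, 829, and 1578 non-globin CPM but 4.52, 3.22, and 2.39 UMIs per erythroid cell. Pim1, a kinase gene induced by STAT5, had 149, 37, and 58 UMIs, or 306, 414, and 832 non-globin CPM. Its log2 ratios were 2.39, 3.10, and 3.93. Epor, the receptor itself, had 74 UMIs for E10.5, 9 for E11.5, and 6 for E12.5. Bcl2l1, which encodes the survival protein BCL-XL, had 51.4, 246, and 602 CPM and was kept at E12.5 with a log2 ratio of 4.30. Cish had 4, 3, and 1 UMIs.

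Between stages, the erythroid cells were compared with each other on the same scale, with 2-fold as the limit of size. These differences combine stage, library, dissection, and depth, which cannot be told apart with 1 library each. From E10.5 to E11.5, 602 genes were kept, of which 73 (12.1%) were higher and 52 (8.64%) lower by at least 2-fold. From E11.5 to E12.5, 438 were kept, with 34 (7.76%) higher and 50 (11.4%) lower. With TMM factors, the counts were 60 and 98 in the first comparison and 47 and 41 in the second, and in CPM of all UMIs they were 12 and 411, and 1 and 258.

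Hsd3b6 had one of the largest differences between stages. It lies on the minus strand at chr3:98805504-98814443 in 4 exons and encodes a 3β-hydroxysteroid dehydrogenase, a family best known from steroid-producing cells. The erythroid cells held 104 UMIs for E10.5, 177 for E11.5, and 444 for E12.5, or 214 (exact interval, 175 to 259), 1982 (1701 to 2296), and 6368 (5789 to 6988) non-globin CPM. In the cells below 2% of the same libraries, it had 1.91, 0.187, and 0.144 CPM. UMIs were found in 44.3%, 69.6%, and 78.3% of the erythroid cells, with a mean of 1.70, 7.70, and 9.65 per cell. The log2 differences between neighboring stages were 3.15 and 1.68. On both scales, its level was higher at each later stage, whereas all UMIs other than globins were fewer.

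Other genes higher for E11.5 than for E10.5 were Ypel3 (log2 difference of 3.33), Lockd (3.29), Malat1 (2.54), and Ncf4 (2.48). Malat1, a nuclear long noncoding RNA, had 2907, 16985, and 40472 non-globin CPM, and 23.2, 66.0, and 61.3 UMIs per cell, compared with 35.6, 84.9, and 75.8 in cells below 2%. At E12.5, its log2 ratio against those cells was 2.83 in non-globin CPM but −0.18 in CPM of all UMIs. Ncf4, a subunit of the phagocyte oxidase, had 222, 1288, and 1305 CPM, with UMIs in 100% of the E11.5 cells. Lockd had 24, 51, and 10 UMIs, so that its order was not kept at E12.5 (log2 difference of −1.92).

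Lower for E11.5 than for E10.5 were Gmpr (log2 difference of −2.46), a guanosine monophosphate reductase, mt-Nd1 (−2.12), the metallothionein Mt2 (−2.11), the lipid droplet gene Plin2 (−2.09), and Gm10260 (−1.95). The mitochondrially encoded mt-Nd1, a subunit of respiratory complex I, had 32.2, 3.57, and 0.783 UMIs per cell at the 3 stages, compared with 33.8, 65.3, and 58.7 in cells below 2%. Its part of a wider difference can be seen in the mitochondrial share of UMIs other than globins, with medians of 2.76%, 1.15%, and 0.514% per erythroid cell. Ribosomal protein genes had medians of 33.4%, 27.3%, and 17.6%. Mt2 had 1632, 369, and 588 CPM.

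From E11.5 to E12.5, Mkrn1 (log2 difference of 2.19), Tcp11l2 (2.07), Zfand5 (1.91), Ypel5 (1.85), and Nudt4 (1.77) were higher. Nudt4, a Nudix hydrolase of inositol pyrophosphates, had 2158, 5184, and 17683 non-globin CPM and 17.2, 20.1, and 26.8 UMIs per cell, so that it was higher at each later stage on both scales. Mkrn1, a ubiquitin ligase gene, had 185, 459, and 2137 CPM. Ypel5 had 11, 16, and 47 UMIs, Tcp11l2 4, 10, and 35, and Zfand5 35, 13, and 40, so these rest on small counts. At E12.5, the log2 ratio of Zfand5 against cells below 2% was 2.15 in non-globin CPM and −0.69 in CPM of all UMIs.

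Of 11 genes that clear organelles or take part in enucleation, 7 were higher by at least 2-fold from E10.5 to E11.5 and 0 lower, beside 13.8% and 14.4% of every gene with a UMI. From E11.5 to E12.5, 4 were higher and 2 lower, beside 15.5% and 42.0%. A single UMI can pass 2-fold in these counts, and 4 and 5 of the genes passed the filter on level. The list had 1482, 4389, and 9093 non-globin CPM, and 11.8, 17.0, and 13.8 UMIs per cell. Bnip3l, the NIX receptor through which mitochondria are removed from reticulocytes, had 473, 1534, and 4518 CPM and 3.77, 5.96, and 6.85 UMIs per cell, beside 224, 262, and 255 CPM in cells below 2%. Trim10, a RING-finger gene of erythroid differentiation, had 236, 851, and 789 CPM. Map1lc3b and Gabarapl2, of the autophagy machinery, had log2 ratios against cells below 2% of 0.72 and 0.20 for E10.5 and of 2.79 and 2.15 for E12.5. In CPM of all UMIs, the E12.5 values were −0.17 for Map1lc3b and −0.72 for Gabarapl2.

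**Figure D5:**
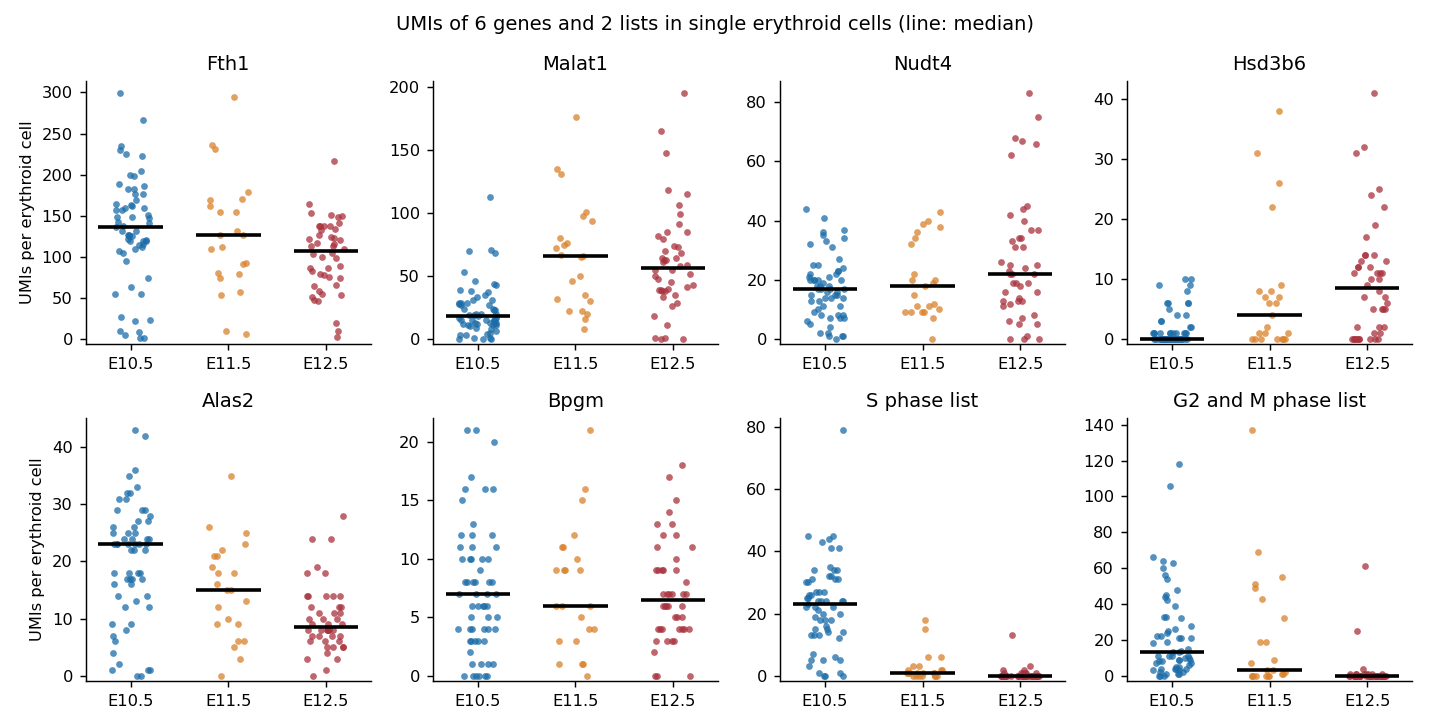
Each point is 1 erythroid cell and each line the median of a stage, with the UMIs per cell (y axis) of 6 genes and of the S phase and G2 and M phase lists at E10.5, E11.5, and E12.5. Hsd3b6 has medians of 0, 4, and 8.5 UMIs and Nudt4 of 17, 18, and 22, while Alas2 has 23, 15, and 8.5, Bpgm 7, 6, and 6.5, and both lists are at a median of 0 at E12.5.

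In sum, genes of S phase were lower at the later stages, and those of G2 and M phase took another course. The median erythroid cell had fewer UMIs of both lists at each later stage. These medians were 23, 1, and 0 for S phase and 13, 3, and 0 for G2 and M phase. Of the 15 genes of S phase, 0, 4, and 11 were lower than in the cells below 2% by at least 4-fold at the 3 stages (1.92%, 3.31%, and 7.91% of every gene with a UMI), and 0 were higher, while 15, 0, and 0 passed the filter. From E10.5 to E11.5, 14 of the 15 were lower by at least 2-fold (14.4% of every gene with a UMI) and 0 higher. From E11.5 to E12.5, 5 were lower and 1 higher, beside 42.0% and 15.5%. The filter was passed by 1 gene from E10.5 to E11.5 and by 0 from E11.5 to E12.5. That gene, Tyms, did not reach 2-fold (log2 difference of −0.80), so all 14 lower genes were below the level kept. At E10.5, the list had 22.6 UMIs per erythroid cell beside 23.8. At E11.5 and E12.5, the same list gave 2.78 and 0.565 UMIs per cell beside 23.4 and 27.5, and 2828, 717, and 373 non-globin CPM at the 3 stages. Tyms, which makes thymidylate, had 146, 15, and 1 UMIs, Rrm2, a ribonucleotide reductase subunit, 155, 8, and 5, and Slbp, which binds the histone mRNA stem-loop, 151, 6, and 3. At E12.5, 1 cell held 13 of the 26 S phase UMIs, and 36 of the 46 cells had none.

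Of the 15 genes of G2 and M phase, 1, 3, and 0 were higher than in the cells below 2% by at least 4-fold at the 3 stages, and 0, 0, and 1 were lower (0.835%, 1.42%, and 1.60% of every gene with a UMI higher, and 1.92%, 3.31%, and 7.91% lower). Together they gave 22.5, 21.7, and 2.13 UMIs per erythroid cell, or 2818, 5598, and 1405 non-globin CPM. From E10.5 to E11.5, 6 of the 15 were higher by at least 2-fold and 0 lower, beside 13.8% and 14.4% of every gene with a UMI. From E11.5 to E12.5, all 15 were lower, beside 42.0%. The filter was passed by 9 and 5 of them. Ube2c, a ubiquitin-conjugating enzyme of mitosis, had 312, 1187, and 186 CPM, Ccna2, cyclin A2, 232, 549, and 158, and Birc5, survivin, 413, 526, and 158. Mki67, the Ki-67 gene, had 366, 493, and 172 CPM.

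These sums were carried by some of the cells. At E11.5, the median cell had 3 UMIs of G2 and M phase genes, 7 of 23 cells had 0, and 1 cell held 137 of the 500 UMIs (27.4%). That cell was the one with the lowest globin share of its stage and the most UMIs of other classes, described below. At E12.5, 35 of 46 cells had 0, and 1 cell, with 21852 UMIs and 2215 genes, held 61 of the 98 UMIs (62.2%). It was the only E12.5 cell that passed the study's limits on detected genes. Another 25 of the 98 UMIs were in 1 of the 3 cells of mostly adult β-globin. In non-globin CPM, the G2 and M phase list had 10463 in those 3 cells and 1071 in the other 43. The genes with the largest negative differences from E11.5 to E12.5 were Mif (log2 difference of −3.08), Ube2c (−2.61), the chromatin protein gene Hmgb2 (−2.60), the tubulin gene Tubb5 (−2.51), and Cks1b (−2.40), a partner of cyclin-dependent kinases.

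Markers of 10 other cell classes had few UMIs in the erythroid cells. Over the 10 lists together, the 61 cells of E10.5 held 101 UMIs, the 23 cells of E11.5 held 41, and the 46 cells of E12.5 held 14. The macrophage list, with Cd68 as its most abundant gene at E10.5, had 2, 0, and 0 UMIs, and the endoderm and hepatocyte list, which includes Alb and Afp, had 3, 0, and 0. The lists of megakaryocytes had 9, 1, and 0 UMIs, of blood progenitors 11, 2, and 1, of endothelial cells 17, 5, and 1, and of germ cells 0, 2, and 4. The coelomic epithelium and early gonad had 12, 5, and 2, Sertoli and supporting cells 6, 3, and 3, mesenchyme 15, 17, and 3, and neural crest and neurons 26, 6, and 0. A count of 0 allows up to 3 UMIs. In the cells below 2%, the summed lists ranged from 10.4 (macrophages) to 544 (mesenchyme) non-globin CPM at E10.5, and from 29.9 (macrophages) to 1867 (germ cells) at E12.5. For rare classes, the erythroid level was not set apart, as with neural crest and neurons (67.2 CPM, beside 73.7 in cells below 2%) and megakaryocytes (11.2 beside 9.57) at E11.5.

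A single cell at E10.5 held 35 of the 101 UMIs. It had 44263 UMIs, 5501 detected genes, and the lowest globin share of its stage (25.9%). Another at E11.5 held 27 of the 41 UMIs, 15 of them from the mesenchyme list, with 32171 UMIs, 4405 genes, and 38.5% globin. Without them, 66 and 14 UMIs were left. Scrublet called 7 of the 61 erythroid cells at E10.5 as doublets and 0 at the later stages. Neither of the cells just described was among the 7. Between libraries, 12 barcodes were shared by E10.5 and E11.5, 19 by E10.5 and E12.5, and 10 by E11.5 and E12.5. Of the erythroid cells, 2 had a barcode that was also found in another library, in both cases in a cell with little globin (0.124% and 0.243% of UMIs).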

How the data were processed

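The authors deposited matrices of UMI counts per gene and cell barcode for each library, without normalization. Reads had been mapped to mm10 with Cell Ranger 3.0.2 per the labels, whereas the file headers name version 6.0.0. No pooled or per-comparison columns were used. Totals per library, which set the precision, are given above.

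The 7 globin genes were summed per cell, and cells with at least 20% of UMIs from them were compared with cells below 2% of the same library. UMIs were summed per group and scaled to 1000000 UMIs other than those of the 7 genes (CPM). Differences are log2 ratios with a pseudocount of 10 CPM, among genes whose mean level in both groups was worth at least 20 UMIs in the smaller group. Counts over the gene lists were made without this filter, a choice made after the data were seen. As each stage has 1 library and the contrast is that of the rule, no p-value was computed. Shares carry exact binomial (Clopper-Pearson) and sums exact Poisson intervals at 95%, for counting error only. An upper limit for a count of 0 is 3 counts. The members and the gene lists were chosen with earlier results of these data known.

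Genes were named if they are globins or markers, if they are among the up to 4 members of a list with the highest mean level in erythroid cells, go against the direction of their list, or define a class and are at 0, if they are among the 10 per direction with the largest ratio in all 3 libraries, ranked by the smallest of the 3, or if they are among the 5 per direction with the largest ratio between stages. Bpgm, Igf2bp2, and Igf2bp3 were named outside this rule, after their values were seen. Some genes that this rule takes in are not reported here.

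Scrublet (scanpy 1.11.5) was used to call doublets, which were kept. The automatic threshold of Scrublet was used at E12.5 only, as elsewhere it was missing or called too small a share of cells. In the other libraries, cells were ranked by score and the expected 3.58% (E10.5) and 1.96% (E11.5) were called, with ties. Ratios of summed counts were tested on simulated data. Sequences came from the GENCODE M21 transcripts and the RefSeq promoter table, both on GRCm38. Python 3.11.15, numpy 2.4.6, scipy 1.17.1, pandas 2.3.3, matplotlib 3.10.9, and edgeR 4.0.16 in R 4.3.3 (for TMM factors) were used. Alternatives were other limits on the globin share, the study's cell filter, cells with at least 1000 UMIs, removal of doublets, other scalings, filters, and pseudocounts, thinning, and means of per-cell shares. Leaving out the 3 cells of mostly adult β-globin, and Fth1 and Ftl1 from the iron list, was added after the data were seen.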

Additional observations from a re-analysis of the deposited data

How the results depend on the processing

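No paired analysis was possible because each stage is 1 library and no result comes from a test between replicates. Leaving out a replicate was not possible for the same reason. With the study's cell filter, 1 erythroid cell remained at E12.5, and the summed shares of E12.5 minus E10.5 were −18.8 percentage points for Hbb-bh1, −15.3 for Hba-x, and 6.48 for adult β-globin, in place of −23.7, −38.2, and 16.7. With at least 50% globin UMIs, they were −23.1 for Hbb-bh1 and −37.8 for Hba-x. As a mean of the cells' shares they were −36.4 for Hba-x and 17.1 for adult β-globin, and without the 3 cells of mostly adult β-globin, −37.2 and 11.9. The directions were the same in each of these.

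The counts of genes past the limit depended on the filter and the scaling, in the order of higher and lower genes of each stage against its cells below 2%, and then of E11.5 against E10.5 and E12.5 against E11.5. Without a filter on low levels, there were 369 lower at E10.5, 277 higher and 643 lower for E11.5, 316 and 1566 for E12.5, 1419 and 1480 from E10.5 to E11.5, and 1197 and 3250 from E11.5 to E12.5. With a level worth 50 UMIs, there were 75 and 91, 32 and 7, 37 and 18, 31 and 23, and 17 and 19. Both settings change the number of genes tested, and without a filter a single UMI can pass 2-fold. In CPM of all UMIs, there were 705 lower at E10.5, 32 and 834 for E11.5, 26 and 1937 for E12.5, 12 and 411 from E10.5 to E11.5, and 1 and 258 from E11.5 to E12.5. TMM factors gave 120 lower at E10.5 and 98 lower from E10.5 to E11.5, and shifted all log2 ratios by 0.45, 0.11, 0.26, −0.21, and 0.12 in the same order. A pseudocount of 50 CPM gave 64 and 58 at E10.5. Cells with at least 50% globin gave 43 lower at E11.5 and 20 higher from E11.5 to E12.5, for which the cause was not tested. Thinned to 5000 UMIs, the median genes of erythroid cells minus those of cells below 2% were −1473 for E11.5 and −1736.5 for E12.5, in place of −2467 and −2828.5.

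Of 2254 alternative values for 263 results of 75 named genes, 1899 stayed within counting error or on the same side, 350 moved in size (191 of them in CPM of all UMIs, 62 with at least 50% globin, 55 with TMM factors, 40 with a pseudocount of 50 CPM, and 2 without the 3 cells of mostly adult β-globin), and 5 were reversed, all in CPM of all UMIs. These were Fth1 from E11.5 to E12.5 (−0.031) and, at E12.5 against cells below 2%, Gabarapl2 (−0.72), Malat1 (−0.18), Map1lc3b (−0.17), and Zfand5 (−0.69). The depth of E11.5 (89313 UMIs other than globins in erythroid cells) and E12.5 (69727) limits the description to the more abundant genes, compared with 486481 at E10.5.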

Other observations

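The 3 cells of E12.5 with mostly adult β-globin had 20 to 55 Fth1 UMIs per cell, and the other 43 cells of that stage a median of 113. Ftl1 had 34 to 46 UMIs, compared with a median of 97. The 3 cells also had fewer UMIs other than globins, with a mean of 828 per cell compared with 1564. In non-globin CPM, Fth1 had 49497 compared with 67443, and Ftl1 49899 compared with 66060. Malat1 had 33 UMIs in 1 of the 3 cells and 0 in the others, compared with a median of 59. The haem synthesis list had 14, 31, and 60 UMIs in the 3 cells, compared with a median of 18. In non-globin CPM, it was higher in the 3 cells, at 42254 compared with 14143 in the other 43. These cells were singled out after their values were seen, and the differences were not tested.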
